A study of Homo sapiens with 18 samples.

Results

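The average effect of WDR5 knockdown was measured as the difference between 9 shWDR5 and 9 shCtrl samples, 3 of each in LM2, BrM3 and BoM, with the cell line as a block in the fit. These are all the samples that carried either hairpin, 18 of 18 in the series. The parent of these sublines is MDA-MB-231, a long-established line of human breast cancer of the triple-negative type, and passage through mice chose LM2 for growth in the lung, BrM3 in the brain and BoM in the bone. In every sample the cells carried a doxycycline (DOX) inducible hairpin in the pINDUCER10 lentivirus and received 1 μg/mL DOX for 3 days, so both arms were exposed to the drug. The control arm expressed the hairpin shCtrl and the knockdown arm the hairpin shWDR5-1. Only 1 WDR5 hairpin was sequenced, and in these samples its effects on other transcripts cannot be told apart from those of losing WDR5. All 3 sublines share this parent, so the average describes them alone. The Methods describe the replicates as harvests at different passages.

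WDR5 is a WD40-repeat protein that holds together the complexes in which the KMT2 and SETD1 enzymes methylate lysine 4 of histone H3, a mark of active promoters. It also belongs to acetyltransferase complexes and binds MYC, and it is known to sit at promoters of ribosomal protein (RP) genes in many cell types. RPs are the structural subunits of the ribosome, and cells normally make them in balanced amounts.

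Total counts ranged from 20064987 to 119667013 in shCtrl and from 17485841 to 66753082 in shWDR5, and the arms overlapped. Levels are given as normalized CPM, the count of a gene per 1000000 counts after TMM scaling of library sizes. TMM factors lay between 0.995 and 1.05 in shCtrl and between 0.935 and 1.01 in shWDR5. The table had 0 rows for spike-ins, so a change shared by all genes could not be measured, and in bulk RNA fewer cells of a kind and less RNA per cell cannot be told apart. Markers matched the labelled cells: VIM, an intermediate filament of mesenchymal cells, was at 1494 to 2018 normalized CPM in shCtrl and 1736 to 2231 in shWDR5, and CDH1 (E-cadherin) was at most 0.601. The estrogen receptor gene ESR1 was at most 0.537 CPM. Markers of leukocytes, endothelium, fibroblasts and adipocytes were low in both arms, while the luminal mammary list as a whole was not. Its 11 markers, ESR1 and CDH1 among them, summed to 681 to 1005.8 CPM in shCtrl and 618 to 1018.5 in shWDR5. Within it, KRT8 was at 242 to 447 CPM and KRT18 at 263 to 389 in shCtrl. The summed level of 12 leukocyte markers was 1.81 to 4.30 CPM in shCtrl and 1.5 to 4.95 in shWDR5, with CD3E, a T cell marker, at a median of 0 in both. The 8 endothelial markers summed to 7.48 to 23.7 CPM and 9.64 to 25, and the 9 fibroblast and adipocyte markers to 2.88 to 11.5 and 1.6 to 6.27, mostly from PDGFRB.

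WDR5 itself (ENSG00000196363, GRCh38 chromosome 9, 134135365 to 134159968) was measured first, as a check of the labels. In shCtrl its level ran from 79.4 to 134 normalized CPM with a median of 90.5, and in shWDR5 from 14.0 to 24.4 with a median of 21.3. No shWDR5 sample reached the lowest shCtrl sample. On average it fell by 2.21 on the log2 scale (standard error 0.0877) with an adjusted p = 3.2e-12 in the edgeR fit, which left 21.5% of the control level. LM2 gave a log2 fold change of -2.43, BoM of -2.24 and BrM3 of -1.97.

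Of 12160 genes tested over the 18 samples, 2474 were lower in shWDR5 (20.3% of those tested) and 2035 were higher (16.7%) at an adjusted p-value under 0.05. The excess of falls over rises depended on the tool and the scaling of library sizes. With DESeq2 2467 genes were lower and 2509 higher, and with RLE scaling in edgeR 2343 and 2325. The changes were mostly small. The median size among called genes was 0.42 on the log2 scale for those that fell and 0.25 for those that rose, and 3451 of the 4509 called genes changed by less than 0.5. A fall of at least 2-fold was seen for 147 genes (1.21%) and a rise of that size for 12 (0.0987%). These 2 counts depended on the filter on low counts, at 539 and 51 with edgeR's own filter and 816 and 112 with none, and without LM2 the falls numbered 230. Genes with large changes in either direction had low levels: the 147 had a median of 3.90 normalized CPM in shCtrl and the 12 a median of 5.52, against 30.3 over all tested genes. The genes that fell also had a higher GC content of the longest transcript than those that rose, with medians of 50.6% and 44.9% against 47.1% over all tested genes. After each sample's dependence on GC content was removed, 2385 of the 2474 and 1853 of the 2035 were still called in the same direction. The counts rested most on BrM3: without that line, 1616 genes fell and 1025 rose. They were largest for rises with the GC correction and the replicate number as a block together, at 3207. Counts within gene lists moved as well. Of 102 such counts, 2 for each list, 46 moved by more than 1.5 times without BrM3, 32 without BoM, 26 without LM2 and at most 10 without any 1 sample. The background for each list is the 20.3% lower and 16.7% higher of all tested genes. Genes called lower had a median of 12.3 normalized CPM in shCtrl and those called higher 66.8, against 30.3 over all tested genes. The lists were not matched to this background on level, so a share above or below it may go with level.

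**Figure D1:**
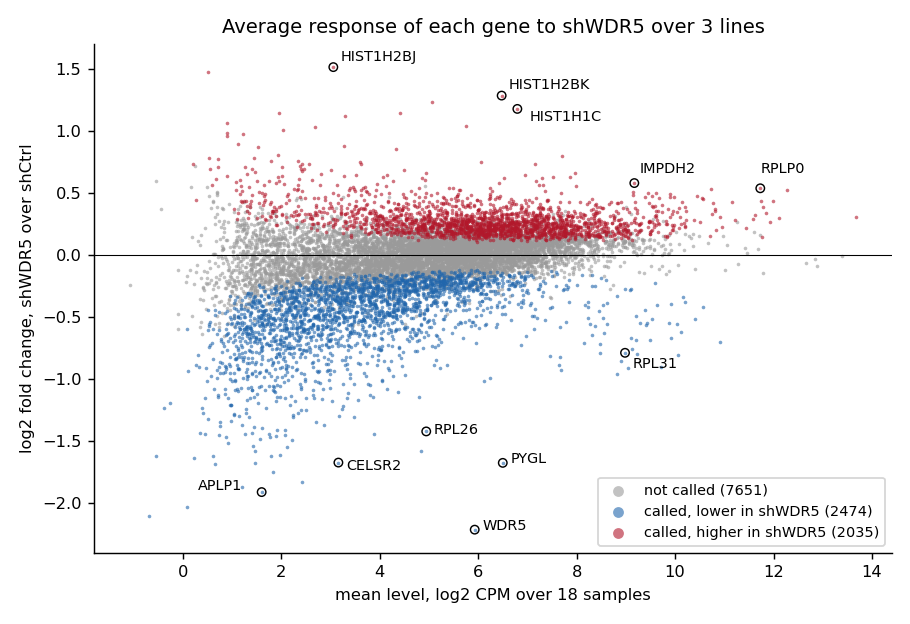
Average log2 fold change of shWDR5 over shCtrl against the mean level (log2 CPM over 18 samples) for 12160 genes, 1 point a gene, blue for the 2474 called lower, red for the 2035 called higher and gray for the rest. Falls extend past -2, mostly at low levels, while rises rarely pass 1, and WDR5 and PYGL stand below the other genes of their level.

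The 3 lines contributed to the average in the same direction. Among the genes called down, 2411 of 2474 had a negative fold change in each line, and among those called up 2022 of 2035 had a positive one. These shares come from the contrast that made the calls and are given as a description. When the lines were taken singly in a 6-group fit, 969 of the genes called down passed the threshold in no line, 609 in 1, 499 in 2 and 397 in 3. For the genes called up these numbers were 1230, 550, 164 and 91. The median log2 fold change of the genes called down was -0.35 for LM2, -0.42 for BrM3 and -0.47 for BoM, and that of the genes called up was 0.22, 0.26 and 0.29. In 868 genes (7.14%) all shWDR5 samples lay below all shCtrl samples of the same line in each of the 3 lines, and in 413 (3.4%) they lay above. A test of whether the response depended on the line called 0 genes (0.0%) by edgeR's quasi-likelihood test with an interaction term, with 495 genes at an unadjusted p-value under 0.05 and a smallest adjusted p of 0.091. DESeq2 called 57. A gene that misses this test is not shown to respond alike in the lines.

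The 8 genes with the largest falls among those that separated the arms in each line fell by 1.62 to 1.91 on the log2 scale. PYGL, the liver form of glycogen phosphorylase that releases glucose from glycogen, was the one with the most reads behind it (chromosome 14, 50857891 to 50944483). It ran from 123 to 154 normalized CPM in shCtrl (median 140) and from 32.1 to 53.6 in shWDR5 (median 45.7). The arms were far apart in each line, and the log2 fold change was -1.68 (standard error 0.0776, adjusted p = 3.0e-11). APLP1, a neuronal relative of the amyloid precursor protein (chromosome 19, 35867899 to 35879792), went from 3.16 to 6.50 CPM in shCtrl to 0.798 to 1.97 in shWDR5, falling by 1.91 on the log2 scale (standard error 0.128, adjusted p = 4.2e-09). CELSR2, an atypical cadherin of planar cell polarity (chromosome 1, 109249539 to 109275751), lay between 8.13 and 22.9 CPM in shCtrl and between 1.94 and 9.12 in shWDR5. Its ranges overlapped only across lines, since LM2 had the highest level in both arms, and its log2 fold change was -1.67 (standard error 0.116, adjusted p = 4.7e-09). MPP2, a membrane scaffold of the MAGUK family, fell by 1.83 on the log2 scale, from a median of 7.73 to 2.04 CPM (adjusted p = 4.7e-09).

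Few reads also lay behind APLP1 and MPP2, with 15 to 91 and 26 to 156 counts in shWDR5 samples. The remaining 4 of the 8 went lower still, to 10 counts or fewer in at least 1 shWDR5 sample. NFATC4, a transcription factor activated by calcineurin, had as few as 3 counts in a shWDR5 sample and fell by 1.75 (standard error 0.278). HOOK1, which links endosomes to microtubule transport, fell by 1.68 (standard error 0.23), with line values from -0.82 in LM2 to -2.53 in BoM. The long noncoding RNA LINC00654 reached 1 count in a shWDR5 sample and fell by 1.67 (standard error 0.177). PIK3AP1, an adaptor that couples receptors to PI3 kinase, fell by 1.62 (standard error 0.182). Their sizes are less certain than that of PYGL, whose standard error was the smallest of the 8.

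Further genes were taken for the smallest p-values among those that fell. WNT3, a secreted Wnt ligand, went from 7.82 to 10.7 CPM down to 3.83 to 4.79 (log2 fold change -1.16, adjusted p = 9.6e-10). CD40, a receptor of the TNF receptor family, fell by 1.13 on the log2 scale, with medians of 14.5 and 6.01 CPM. TMEM25, a transmembrane protein with an immunoglobulin domain (chromosome 11, 118531041 to 118547280), fell by 1.30 (standard error 0.0696, adjusted p = 2.8e-10), and its 9 shWDR5 values (4.94 to 7.78 CPM) all lay under the lowest shCtrl value of 12.4. The lysosomal protease CTSF fell by 1.44, and CYP26B1, which degrades retinoic acid, by 1.05. In these genes the arms did not overlap within any line.

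**Figure D2:**
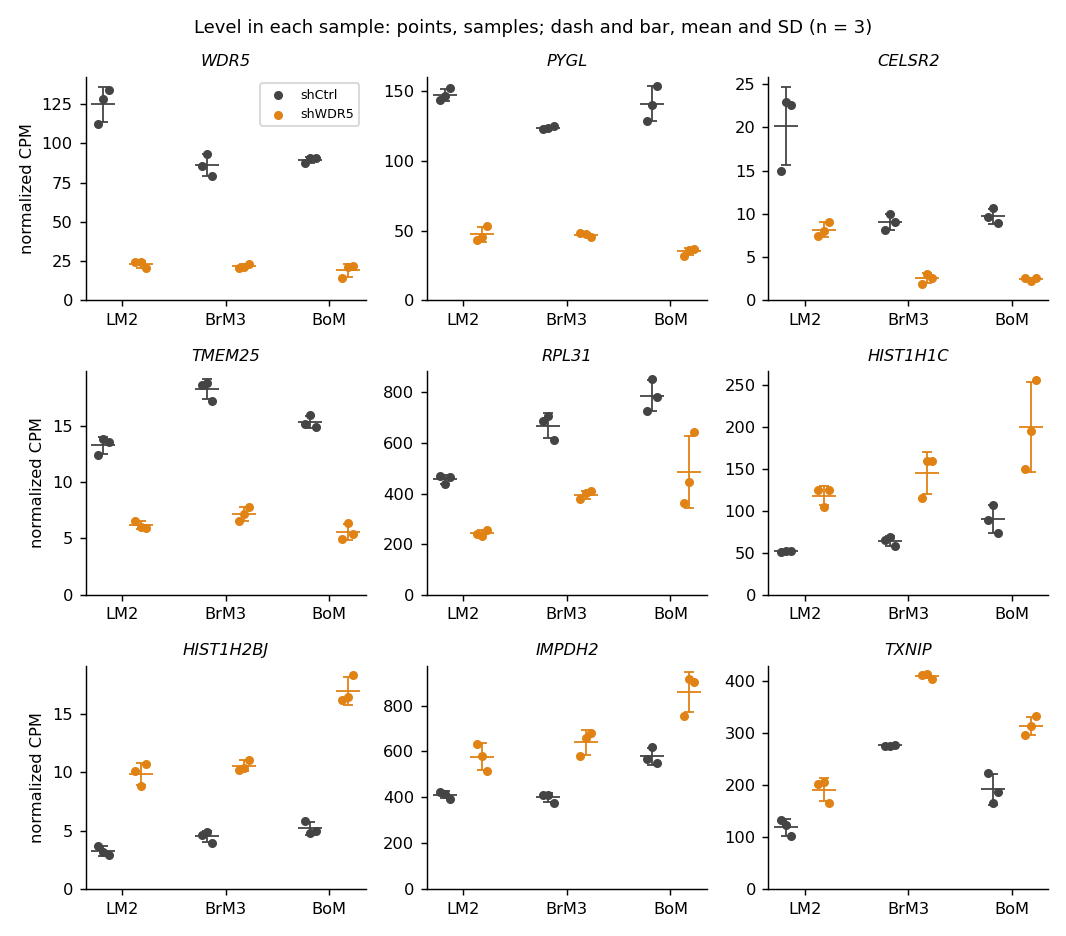
Normalized CPM of 9 genes in each sample, by line, with shCtrl in gray and shWDR5 in orange; points are samples, and the dash and bar give the mean and SD (n = 3). The arms do not overlap in any line for these genes, with PYGL at 123 to 154 CPM in shCtrl and 32.1 to 53.6 in shWDR5, and HIST1H1C at 50.3 to 107 and 105 to 256.

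Of the 8 largest rises, all but that of OR2B6 were in histone genes. Replication-dependent histone genes encode the bulk of the histones made in S phase, and most of their transcripts end in a stem-loop in place of a poly(A) tail. The libraries were made from poly(A) RNA, so these values count only the polyadenylated transcripts, and near-identical copies can share reads. Of 63 such genes in the table, 12 passed the filter on low counts, and 11 of these were higher in shWDR5, against 16.7% of all tested genes. By edgeR 0 were lower, also at an unadjusted p-value under 0.05 and by DESeq2. A gene that rises from a low level passes the filter more readily, so these 12 are not a sample of the 63. Their median log2 fold change was 1.13, against 0.0037 over all tested genes, and lay between 1.00 and 1.23 over the alternatives. The summed level of all 63 was 152 to 289 normalized CPM in shCtrl and 333 to 720 in shWDR5, and the arms did not overlap.

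HIST1H2BJ (chromosome 6, 27125897 to 27132795), a copy of histone H2B, showed the largest rise. It ran from 2.91 to 5.85 CPM in shCtrl (median 4.66) and from 8.83 to 18.4 in shWDR5 (median 10.7). The log2 fold change was 1.51 (standard error 0.0853, adjusted p = 5.7e-10), and the highest shWDR5 values were those of BoM. HIST1H1C, the linker histone H1.2 (chromosome 6, 26055740 to 26056470), went from 50.3 to 107 CPM in shCtrl to 105 to 256 in shWDR5. Its rise was of like size in the 3 lines, at 1.20 for LM2, 1.18 for BrM3 and 1.16 for BoM, and averaged 1.18 (standard error 0.0939, adjusted p = 4.1e-08). The H2B gene HIST1H2BK rose by 1.28 (median 52.6 to 123 CPM) and the H4 gene HIST1H4I by 1.23 (19.2 to 40.9). HIST1H2BD, HIST1H2BC, HIST1H4H and HIST1H2AC rose by 1.15, 1.14, 1.12 and 1.04. HIST1H3H had a log2 fold change of 0.13 and did not pass the test. The second largest rise was that of OR2B6, an olfactory receptor gene at 27957241 to 27958182 on the same chromosome, which went from 0.491 to 0.914 CPM in shCtrl to 1.06 to 4.43 in shWDR5 (log2 fold change 1.47, standard error 0.168).

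Promoters of the genes that moved together are shown for comparison, from RefSeq on GRCh38.p14, each with 250 bases before and 50 after the annotated start. Capitals mark matches, on either strand, to any of 8 short motifs: the E-box of MYC and USF proteins (CACGTG), the box bound by NF-Y (CCAAT), the box bound by the TBP protein (TATAAA), the box bound by SP1 (GGGCGG), the core site of CREB proteins (TGACGT), the site of ETS proteins (CCGGAAG), the site of NRF1 (GCATGCGC) and the site of AP-1 (TGACTCA). Matches of different motifs may overlap. The first 3 promoters belong to histone genes that rose (chr6:27132746-27133045, minus strand; chr6:27139032-27139331, plus strand; chr6:26056421-26056720, minus strand), the next 2 to RP genes that fell (chr17:8383144-8383443, minus strand; chr2:101002039-101002338, plus strand).
HIST1H2BJ: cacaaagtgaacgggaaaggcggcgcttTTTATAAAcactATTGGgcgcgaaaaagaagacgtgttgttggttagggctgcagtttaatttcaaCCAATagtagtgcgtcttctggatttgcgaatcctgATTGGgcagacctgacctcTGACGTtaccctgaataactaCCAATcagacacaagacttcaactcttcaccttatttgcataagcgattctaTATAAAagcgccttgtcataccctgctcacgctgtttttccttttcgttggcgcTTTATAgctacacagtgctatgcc
HIST1H4I: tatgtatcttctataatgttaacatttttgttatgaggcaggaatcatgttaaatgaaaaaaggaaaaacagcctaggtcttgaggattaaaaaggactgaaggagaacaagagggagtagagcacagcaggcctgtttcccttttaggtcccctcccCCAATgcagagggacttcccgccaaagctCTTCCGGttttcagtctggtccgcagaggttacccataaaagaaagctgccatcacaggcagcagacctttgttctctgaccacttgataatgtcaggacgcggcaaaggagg
HIST1H1C: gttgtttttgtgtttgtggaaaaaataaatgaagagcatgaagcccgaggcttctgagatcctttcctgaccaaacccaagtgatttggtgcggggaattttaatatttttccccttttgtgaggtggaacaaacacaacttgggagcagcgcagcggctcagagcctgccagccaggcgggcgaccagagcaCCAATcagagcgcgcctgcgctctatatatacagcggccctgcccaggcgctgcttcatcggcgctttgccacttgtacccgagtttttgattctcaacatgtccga
RPL26: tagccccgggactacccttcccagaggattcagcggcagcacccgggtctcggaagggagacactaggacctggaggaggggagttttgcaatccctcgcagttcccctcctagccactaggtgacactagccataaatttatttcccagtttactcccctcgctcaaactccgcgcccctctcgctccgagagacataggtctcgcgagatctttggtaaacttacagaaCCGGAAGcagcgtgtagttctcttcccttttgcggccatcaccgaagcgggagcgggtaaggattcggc
RPL31: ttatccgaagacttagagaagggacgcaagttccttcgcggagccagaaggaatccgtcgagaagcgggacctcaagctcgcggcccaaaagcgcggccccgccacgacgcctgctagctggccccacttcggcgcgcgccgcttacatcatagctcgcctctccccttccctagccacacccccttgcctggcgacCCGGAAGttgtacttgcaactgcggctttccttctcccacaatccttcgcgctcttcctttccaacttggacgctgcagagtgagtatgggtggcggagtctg
A promoter was matched by symbol for 9696 of the 12160 tested genes. CCAAT was found in 10 of the 11 promoters of the histone genes that rose (90.9%), against 37.1% of all matched promoters, and TATAAA in 7 of 11 (63.6%) against 5.38%. GGGCGG was found in 1 of these 11 and in 70.7% of all. Among 33 matched promoters of RP genes that fell, CCGGAAG was found in 13 (39.4%), against 20.3% of all. Histone and RP genes that were not called or moved the other way were not counted apart. These shares thus cannot be told apart from those of the whole families. Over the genes called in the average CACGTG was found in 8.75% of the promoters of genes that fell and 12.2% of those that rose, against 10.1% of all, and CCGGAAG in 17.2% and 20.4%, against 20.3%. TATAAA was found in 5.56% and 7.07%, and TGACTCA in 3.45% and 3.72% against 3.02% of all. For TGACGT the shares were 10.9% and 13.4%, against 12% of all, and for GCATGCGC 3.76% and 5.36%, against 5.70%. Among the 109 matched promoters of genes that fell at least 2-fold, CCGGAAG was found in 10.1% and TGACGT in 3.67%. These matches describe the letters in this window and say nothing of binding.

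The 6 rises with the smallest p-values after those were mostly smaller. IMPDH2, the rate-limiting enzyme of guanine nucleotide synthesis (chromosome 3, 49024325 to 49029447), ran from 377 to 618 normalized CPM in shCtrl (median 414) and from 516 to 914 in shWDR5 (median 658). BoM was highest in both arms, which makes the ranges overlap across lines but not within one, and the log2 fold change was 0.58 (standard error 0.0555, adjusted p = 3.2e-07). TXNIP, an inhibitor of thioredoxin that responds to glucose, rose by 0.66, from a median of 186 to 313 CPM (adjusted p = 4.2e-07). PPP1R15A (GADD34), which directs a phosphatase to the initiation factor eIF2 under stress, rose by 0.63, from a median of 166 to 279 CPM. SNCAIP, a partner of alpha-synuclein, rose by 0.87, and LINC01204, a long noncoding RNA on the X chromosome, by 0.96 from a median of 1.07 CPM. The sixth was the histone gene HIST1H2AC.

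**Figure D3:**
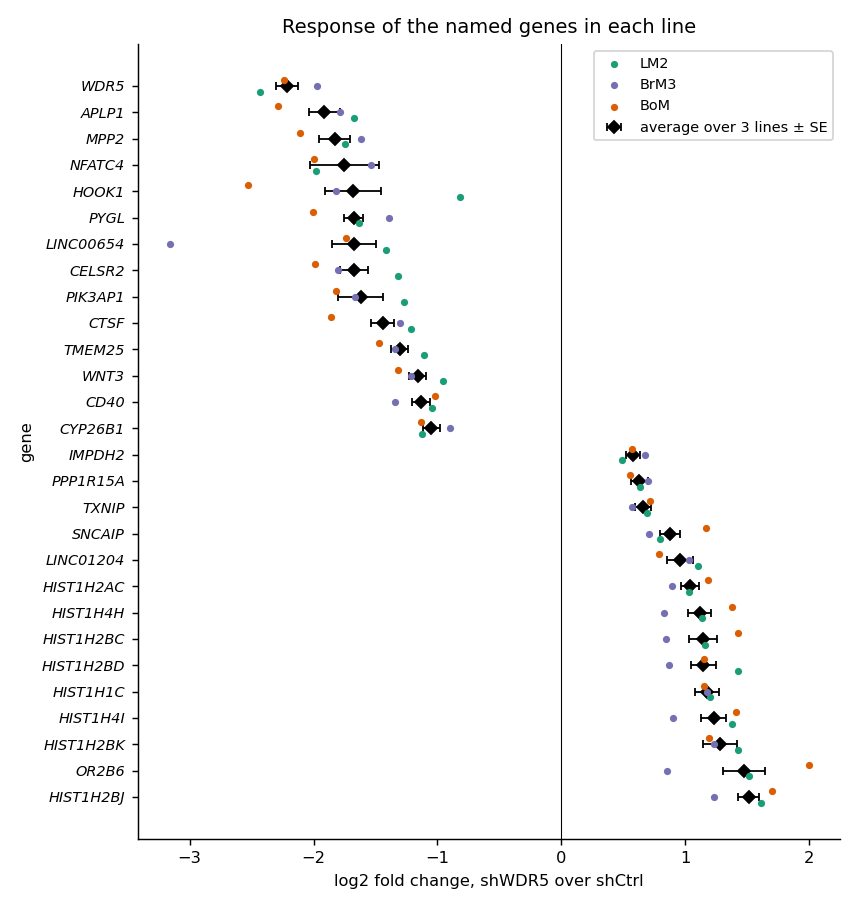
Log2 fold change of shWDR5 over shCtrl for WDR5 and the genes named for the largest changes and the smallest p-values; diamonds with bars give the average over 3 lines ± standard error, and colored points the value of each line. The lines lie on the same side of 0 for each gene, and the widest spreads are those of LINC00654 (-3.16 in BrM3) and HOOK1 (-0.82 in LM2 to -2.53 in BoM).

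RP genes moved in both directions. The study chose RP genes for follow-up on these samples, so their direction here is not independent evidence. In the large subunit, 28 of 46 genes fell and 12 rose, with a median log2 fold change of -0.51, and in the small subunit 13 of 32 fell and 13 rose, with a median of 0.18. The other 6 of 46 and 6 of 32 were not called. The summed level of the large subunit genes was 29744 to 37386 normalized CPM in shCtrl and 25465 to 39127 in shWDR5, and that of the small subunit genes 19057 to 22842 and 16032 to 26025, so the totals overlapped while single genes moved apart.

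RPL26, a protein of the large subunit (chromosome 17, 8377516 to 8383213), fell the most. It ran from 32.4 to 56.8 CPM in shCtrl (median 45.8) and from 10.7 to 22.3 in shWDR5 (median 16). No shWDR5 sample reached a shCtrl sample, and the log2 fold change was -1.42 (standard error 0.135, adjusted p = 2.7e-07), at -1.43, -1.37 and -1.47 in LM2, BrM3 and BoM. RPL31 went from 437 to 852 CPM down to 232 to 642 (log2 fold change -0.79, standard error 0.0794), where the overlap of ranges came from differences between lines. RPL29 fell by 0.96 and RPS24 by 0.90, both without overlap of the arms. By quantitative PCR in LM2, the same study reported falls of 5 RP genes with this and another WDR5 hairpin, RPL31 among them. The others, RPL7, RPL9, RPL32 and RPS14, fell by 0.80, 0.71, 0.69 and 0.68 in the sequenced samples. RPL17 and RPS10 fell by 1.16 and 1.00, but at medians of 5.11 and 3.79 CPM in shCtrl. Copies or read-through transcripts can share the reads of RP genes, RPL26 and the rises below included, and their part was not tested. In the other direction, the stalk protein RPLP0 rose by 0.54, RPL21 by 0.51 and RPS26 by 0.50; these names were chosen after their values were seen.

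Around the ribosome, called genes were mainly higher. Of 57 ribosome biogenesis and nucleolar factors, 40 rose and 0 fell by edgeR, with a median log2 fold change of 0.23, and 0 were lower at an unadjusted p-value under 0.05 or by DESeq2. TAF1D, a subunit of the RNA polymerase I factor SL1, rose by 0.56, NOC3L by 0.54 and nucleostemin (GNL3) by 0.42, each without overlap of the arms in any line. Without BrM3 21 of the 57 rose. Among 43 translation initiation and elongation factors, 26 rose and 3 fell (median 0.18), and without BrM3 10 rose and 4 fell. EIF4G3, a scaffold of the cap-binding complex, was an exception and fell from a median of 164 to 102 CPM (log2 fold change -0.65, standard error 0.053, adjusted p = 4.6e-08), while EIF1 and EEF1D rose by 0.47 and 0.44. Of 20 aminoacyl-tRNA synthetases, 7 rose, led by IARS at 0.26, and 0 fell by edgeR or DESeq2, with 1 lower at an unadjusted p-value under 0.05. Of 75 mitochondrial RPs 12 were higher, a share close to that of all tested genes, and 5 were lower (median 0.04). The noncoding hosts of snoRNAs were divided: 9 of 24 rose, such as SNHG1 by 0.56, and 4 fell, among them SNHG11 by 0.98 and SNHG15 by 0.92.

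**Figure D4:**
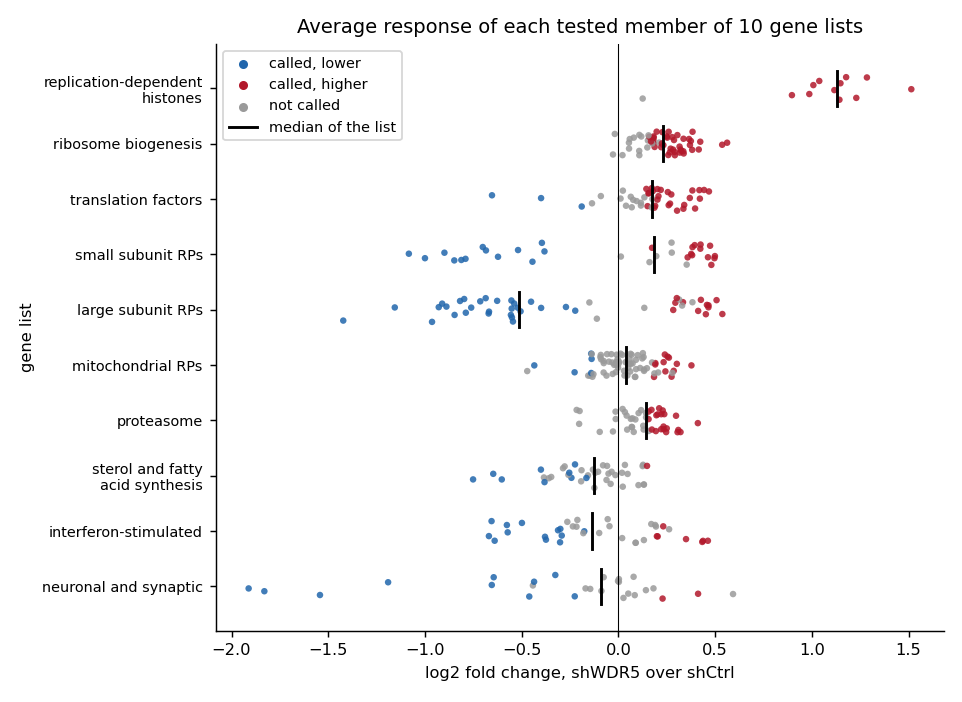
Average log2 fold change of each tested member of 10 gene lists; blue and red points were called lower and higher, gray points were not called, and the black line is the median of the list. RPs of both subunits fall into a lower and a higher set, with medians of -0.51 and 0.18, while 55 of 57 ribosome biogenesis genes lie above 0, with a median of 0.23, and 11 of 12 histone genes lie near 1.

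Lists of chromatin complexes and of the MYC network were short, and their shares rest on few calls. Of 21 genes of the KMT2 and SETD1 complexes, 3 fell and 3 rose (14.3% each), under the 20.3% and 16.7% of all tested genes. MEN1 (menin), a subunit of the KMT2A and KMT2B complexes, fell by 0.54 on the log2 scale, from a median of 57.2 to 40.3 CPM. SETD1B, a methyltransferase, rose by 0.37, and WDR5B, the closest relative of WDR5, fell by 0.35. In the NSL and ATAC acetyltransferase complexes 5 of 17 rose (29.4%), with KANSL2 at 0.32, and 1 fell (5.88%). The rises there numbered 2 to 7 over the alternatives. Of 5 H3K4 demethylases 0 were called by edgeR or DESeq2, with 1 higher at an unadjusted p-value under 0.05, while 2 of them were called higher with the replicate block. Among 26 polycomb subunits, 4 rose (15.4%), led by RBBP4 at 0.32, and 2 fell (7.69%), PHC1 by 0.34 and CBX6 by 0.31. Of 10 replication-independent histones, H3F3B, which encodes histone H3.3, rose by 0.50, H2AFZ by 0.26, and the linker histone gene H1F0 fell by 0.39. In the MYC network 3 of 10 rose (30%), with MLX, a dimer partner of the MXD proteins, at 0.34. Over the alternatives 1 to 4 of them rose.

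In each list of cell cycle and survival genes the share called lower was under the 20.3% of all tested genes. E2F2, an activator of S phase genes, changed the most among the G1 genes, with a fall of 1.24 from a median of 13.5 to 4.96 CPM (standard error 0.146, adjusted p = 2.9e-06) that ranged from -0.64 in LM2 to -1.69 in BoM. Of 21 genes for G1 cyclins, their kinases and inhibitors, 3 fell and 2 rose, among them CDK4 by 0.39. Among 52 DNA replication genes 6 rose (11.5%) and 4 fell (7.69%), shares under those of all tested genes. SLBP, which binds the histone stem-loop, rose by 0.36, and the helicase subunit MCM6 fell by 0.27 while MCM4 rose by 0.29. In the mitosis list 12 of 47 rose and 1 fell (median 0.09), with CKS2 at 0.38. For p53 targets 7 of 25 rose (28%) and 4 fell, and for the BCL2 family 4 of 14 rose (28.6%) and 1 fell. Without BrM3 2 of the p53 targets rose, and the 4 BCL2 family genes lost their calls. For the mTOR pathway 8 of 37 rose (21.6%), with the stress sensor SESN3 at 0.68, and 4 fell.

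Adhesion and matrix lists differed in their counts. Among 37 collagens, laminins and integrins 12 fell (32.4%) and 3 rose (median -0.14), and among 16 epithelial genes 6 fell (37.5%) and 2 rose (median -0.18). Without BrM3 the falls in the first list numbered 5, and without BoM they numbered 5 there and 3 in the epithelial list. The tight junction gene CLDN7 went from 7.75 to 22.4 CPM in shCtrl to 3.77 to 13 in shWDR5 and fell by 0.99 on the log2 scale, without overlap within a line. EPCAM, an epithelial adhesion molecule, fell by 0.60. COL16A1 fell by 0.73, and ITGB4, the hemidesmosome integrin, by 0.72, though by only 0.19 in LM2 against 1.02 in BrM3 and 1.01 in BoM. COL1A1, the main fibrillar collagen, fell by 1.10. The protease gene PLAU (urokinase) fell from a median of 410 to 269 CPM (log2 fold change -0.71, standard error 0.0538, adjusted p = 1.7e-08). ADAMTS1, a secreted protease, rose by 0.79, from a median of 197 to 372 CPM. These medians reflect BrM3 and BoM. In LM2 it was at 3.20 to 6.08 CPM in shCtrl and 4.50 to 9.09 in shWDR5, and the arms overlapped. Over 28 mesenchymal genes 6 fell (21.4%) and 4 rose (14.3%), close to the shares of all tested genes, and over 29 matrix proteases and inhibitors 3 fell (10.3%) and 4 rose (13.8%). VCAM1, MMP2, COL1A2 and CA9 were called lower, but each had 0 counts in at least 1 sample, and no fold is given for them. For VCAM1, MMP2 and COL1A2 the zeros lay outside LM2, the line with their highest levels. In LM2, VCAM1 was at 10.6 to 14.5 CPM in shCtrl and 6.84 to 7.97 in shWDR5. COL1A2 was at 4.16 to 6.04 and 2.31 to 3.18 there, while the arms of MMP2 overlapped.

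Metastasis signatures had members called in both directions. Of the lung signature 4 of 17 fell (23.5%) and 2 rose (11.8%), near the 20.3% and 16.7% of all tested genes. Of the bone signature 4 of 14 fell (28.6%) and 6 rose (42.9%), and of the brain signature 5 of 17 fell (29.4%) and 4 rose (23.5%). The 5 falls of the brain signature lost their calls without BrM3 and also without BoM. The kinase SRC, part of the bone list, fell from a range of 19.9 to 29.7 CPM to 7.62 to 18.4, with no overlap of the arms, and fell by 0.93 on the log2 scale (standard error 0.0976, adjusted p = 9.0e-07). SERPINB2, of the brain list, rose by 0.56.

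In signaling pathways the calls went both ways. Of 37 TGF-beta pathway genes 6 fell (16.2%), with the latent TGF-beta binding protein LTBP3 at -1.08, and 5 rose (13.5%), with SMURF2 at 0.43. Of 39 NOTCH and WNT genes 4 fell (10.3%) and 8 rose (20.5%), among them the NOTCH ligand JAG1, which rose by 0.60 from a median of 124 to 185 CPM. The shares of both lists lay near or under those of all tested genes. Of 28 MAPK feedback and immediate early genes 8 rose (28.6%), with FOSL1 at 0.38 and ETV5 at 0.35, and 4 fell. Among 25 Hippo pathway genes 2 fell and 3 rose, with TEAD2 at -0.52. Of 37 semaphorins, plexins, ephrins and slits 9 fell (24.3%) and 8 rose (21.6%), with EFNB3 at -1.21 and SEMA4F at -0.78. Neuronal and synaptic genes fell in 10 of 27 cases (37%) and rose in 2 (median -0.09), and besides APLP1 and MPP2 the cytoskeletal gene DMTN fell by 1.54 at a median of 1.84 CPM in shCtrl. Tubulins and actin cytoskeleton genes rose in 16 of 44 cases (36.4%), such as TPM3 by 0.38, and fell in 2.

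Called genes of inflammation and interferon responses were mainly lower. Of 36 interferon-stimulated genes 13 fell (36.1%) and 7 rose (19.4%), with a median of -0.14, but without BrM3 5 fell and 5 rose. MX1, an antiviral GTPase, went from 6.81 to 11.6 CPM in shCtrl to 3.60 to 7.66 in shWDR5 and fell by 0.64 (standard error 0.0704, adjusted p = 1.4e-06). OAS3, which makes the activator of RNase L, fell by 0.66, and both genes kept the arms apart in each line. OASL fell by 0.67 on average, but by 0.03 in LM2. Of 30 inflammatory cytokine and NF-kB genes 9 fell (30%) and 3 rose (median -0.23), and the falls numbered 3 without BrM3 and 14 with the replicate block. IL6 fell by 0.61 and IL1B by 0.60, with wide ranges between lines. Of 19 genes of MHC class I antigen presentation 5 rose (26.3%), with B2M at 0.27, though these calls were lost without BoM, and 1 fell, HLA-F, by 1.13 at a median of 1.52 CPM in shCtrl.

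Called genes of protein quality control were mainly higher. The proteasome list had 21 of 45 higher (median 0.14), with PSME2 at 0.41, and 0 lower by edgeR or DESeq2, with 1 lower at an unadjusted p-value under 0.05. Without BrM3 8 of the 45 were higher. Of 43 heat shock proteins and chaperonins 19 rose and 3 fell, and the exceptions included a pair of subunits of the chaperonin TRiC. CCT7 fell from 436 to 824 CPM in shCtrl to 230 to 490 in shWDR5 (log2 fold change -0.86, standard error 0.0594, adjusted p = 4.7e-09), and CCT4 fell by 0.57. Both separated the arms in each line. In the ATF4 and unfolded protein response list 9 of 36 rose (25%), with DDIT3 (CHOP) at 0.65 and ERN1 at 0.55, and 5 fell. Of 28 NRF2 targets and metallothioneins 8 rose (28.6%), with the ferritin gene FTL at 0.53, and 1 fell. Of 55 lysosome and autophagy genes 14 rose (25.5%) and 12 fell (21.8%), with the kinase ULK2 at -1.04 beside CTSF. SR and hnRNP splicing factors rose in 14 of 37 cases, such as HNRNPAB by 0.41, and fell in 1. Without BrM3 the rises numbered 5.

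Metabolic lists differed in their counts. Of 39 genes of cholesterol and fatty acid synthesis 9 fell (23.1%), close to the share of all tested genes, and 1 rose (median -0.12). The falls numbered 4 without BrM3, 2 without BoM and 14 with the replicate block. SCD, which desaturates fatty acids, had medians of 430 and 262 CPM and fell by 0.65 (standard error 0.143), by 0.25 in LM2 against 0.83 and 0.86 in BrM3 and BoM. HSD17B7, a sterol synthesis enzyme, fell by 0.60. Of 75 nuclear-encoded oxidative phosphorylation genes 12 were higher, a share close to that of all tested genes, and 3 lower. Of 15 genes of the mitochondrial genome 2 rose, the ribosomal RNAs MT-RNR2 by 0.52 and MT-RNR1 by 0.49, and 0 were lower by edgeR, by DESeq2 or at an unadjusted p-value under 0.05. Glycolysis and hypoxia genes were called in both directions, with 12 of 39 higher (30.8%) and 9 lower (23.1%), and without BrM3 or without BoM 2 were lower.

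**Figure D5:**
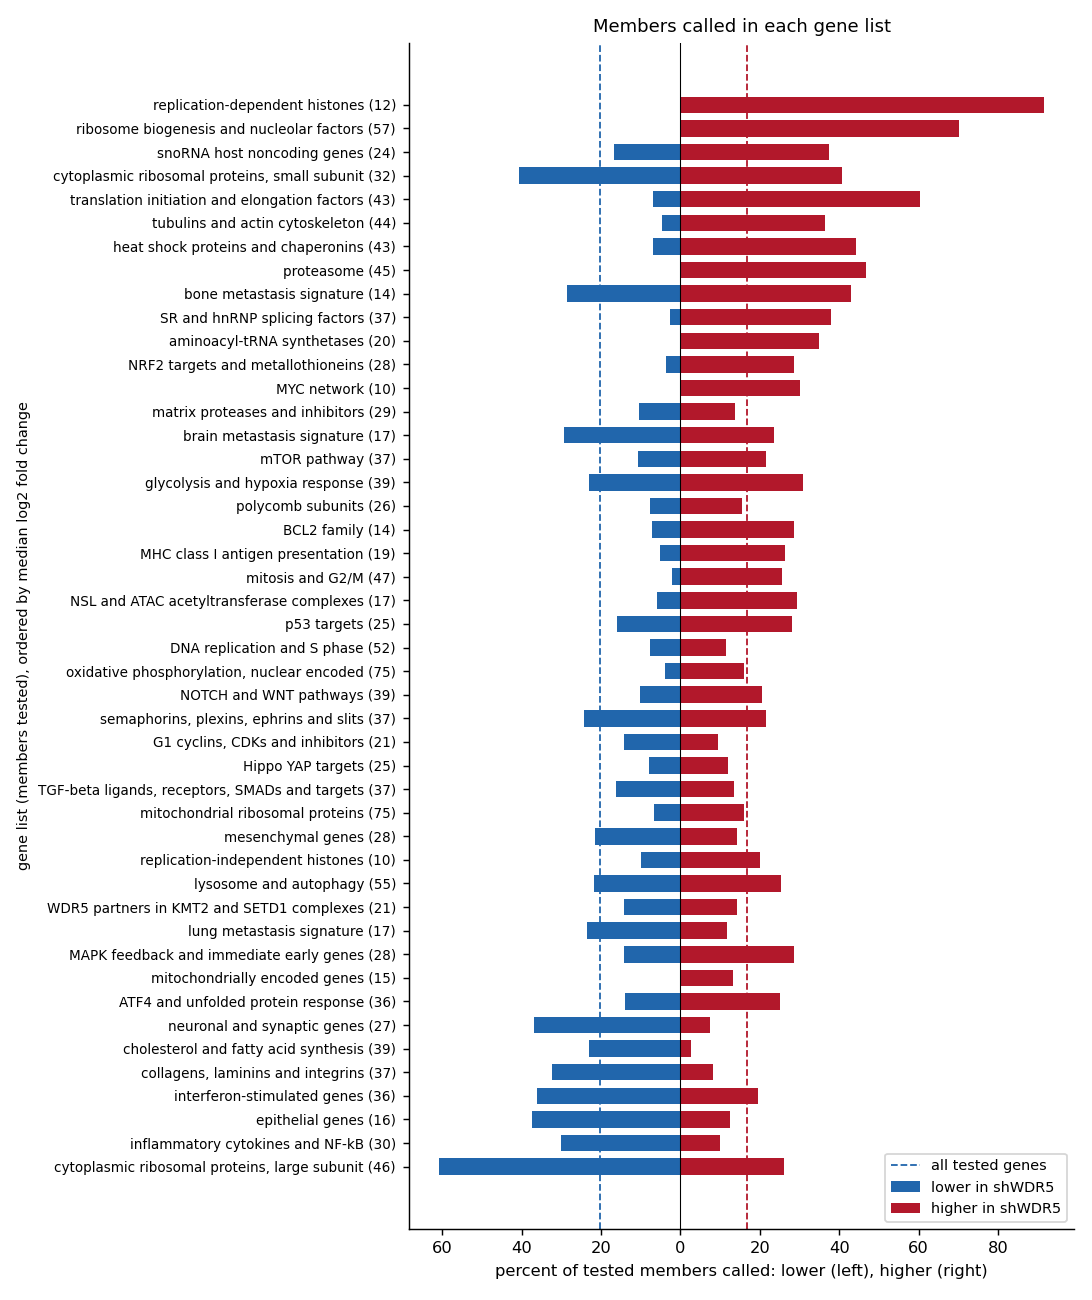
Percent of tested members called lower (blue, to the left) and higher (red, to the right) in each gene list with at least 10 tested members, ordered by median log2 fold change, with dashed lines at the 20.3% and 16.7% of all tested genes. Replication-dependent histones, ribosome biogenesis and translation factors exceed the upper line most, and large subunit RPs the lower one.

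By type of gene, 20.2% of 11234 protein-coding genes fell and 16.9% rose, close to all tested genes. Of 525 long noncoding RNA genes 24.8% fell and 13.5% rose, and of 341 pseudogenes 20.2% fell and 15.5% rose.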

How the data were processed

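RNA was sequenced from 18 samples, and the authors aligned paired-end reads of stranded poly(A) libraries to hg38 with STAR 2.7.0. They deposited raw counts of reads on 58815 genes without normalization. The strand setting of the counting is not given in the sources used here, so overlapping genes on opposite strands are uncertain. A second deposited table, with the authors' DESeq2 log2 fold changes and adjusted p-values per line, was not used. Line, hairpin and replicate were taken from sample titles. The cell line field gives the same line as the title in every sample, while the source field names another metastatic site for most samples and was not used. The labels name BrM2 where the Methods name BrM3.

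A gene entered the tests when its largest normalized count over the samples exceeded 139.7, where the Jaccard index of replicates peaked (0.970), and 12160 genes did so. The model was run in edgeR 4.0.16 under R 4.3.3 (TMM scaling, quasi-likelihood F test, line and hairpin as terms, 14 residual degrees of freedom), with Benjamini-Hochberg adjustment over all tested genes and a threshold of 0.05. Standard errors come from the F statistic. Line dependence was an interaction term in a 6-group fit (12 degrees of freedom). The fits were run on simulated counts with independent replicates and few changed genes. That run does not cover related replicates or as many changes as were called here. Coordinates are from GENCODE release 44. DESeq2 1.42.0, other scalings and filters, thinning, GC correction, the replicate block and leaving out lines or samples were alternatives. Total counts ranged from 17485841 to 119667013.

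The comparison and the 51 gene lists were chosen with earlier results of these data known. Genes were named by a rule: WDR5, the 8 largest falls and 8 largest rises among called genes whose arms did not overlap in any line, the 6 smallest p-values in each direction after those, up to 3 called members of each list with the largest change, and 5 RP genes measured by the study. Genes without a symbol were skipped, some genes that met the rule are given only within the counts of their lists, and some are not reported here. CPM compares a gene between samples. Where levels of different genes were set side by side or summed, they were not corrected for transcript length.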

Additional observations from a re-analysis of the deposited data

How the results depend on the processing

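Under 30 alternatives the log2 fold change of WDR5 stayed between -2.33 and -2.10, and no named gene changed sign. Leaving out BrM3 gave 1616 genes lower and 1025 higher, and the GC correction with the replicate block gave 3207 higher; the other counts of all genes called lower or higher stayed within 1.5 times the main ones. Falls of at least 2-fold, 147 in the report, numbered 539 with filterByExpr, 816 without a filter and 230 without LM2, and rises of that size 51 with filterByExpr and 112 without a filter, against 12. Of 102 counts within lists, 46 moved by more than 1.5 times without BrM3, 32 without BoM, 26 without LM2, 37 with the GC correction and replicate block together, 23 with the block alone, 20 with the GC correction alone and 2 to 13 under the others. Genes whose response depended on the line numbered 57 with DESeq2, 34 without a filter, 30 with the GC correction and 85 when it was joined to the replicate block, against 0 in the other alternatives where this was tested, and the cause was not tested. It was not run with a line left out. With the replicate block alone, 2989 genes were lower and 2768 higher, and 4499 of the 4509 called genes were called again. Same-numbered shCtrl and shWDR5 samples of a line had correlated deviations from group means, over 0.1 in 7 of 9 pairs (-0.17 to 0.728). The mean was 0.36 for the same number, and 12 of 18 samples correlated best with their own number. The mean for other numbers was -0.194. Deviations cancel out within a group, so that value largely follows from the first and adds no evidence. Same numbers were thus related in most pairs but not in all. The main fit did not pair them, and the replicate block was an alternative. Of 161 named genes, 22 lost their call without BrM3, 20 without BoM and 11 without LM2, and at most 6 without any 1 sample. CA9, JUND, BCL2L11, MMP2 and MGA were lost most often. Samples at 17485841 counts limit genes under about 1 CPM, and the falls of LINC00654, NFATC4 and HOOK1 rest on few reads.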
